A study of Marmota monax with 203 samples.

Results

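The 100 genes described here were picked from 17587 as those whose mean liver RNA level stood higher in woodchucks given woodchuck interferon-alpha (wIFN-α) than in placebo animals after the first dose, and less so or not at all after later doses. Levels are counts per 1000000 reads on genes (CPM). For each week a ratio was formed as log2 of the mean wIFN-α CPM plus 0.5 over the mean placebo CPM plus 0.5. A gene qualified with a wIFN-α level at least 1.5-fold that of placebo at week 0 and a mean of at least 2 CPM in the wIFN-α animals at week 0. Of 12488 genes with that mean, 1234 also reached that fold, and the 100 with the largest week 0 ratio minus the mean of the ratios at weeks 7, 11 and 15 form the list. The values of weeks 0, 7, 11 and 15 therefore chose the genes and are given below as a description with no test. Tests were made only at weeks -3, 3, 19 and 23, which the choice did not use.

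The animals were adult Eastern woodchucks of both sexes with chronic woodchuck hepatitis virus (WHV) infection, established by infecting them as newborns. They received wIFN-α or vehicle placebo under the skin 3 times per week, at 20 μg of wIFN-α per animal at weeks 0 and 3 and 100 μg at weeks 7, 11 and 15. Liver biopsies were taken at week -3, within hours of a dose at weeks 0, 3, 7, 11 and 15, and after treatment at weeks 19 and 23. The submitters' labels number weeks 0 to 23 as 1, 4, 8, 12, 16, 20 and 24. M1004, a wIFN-α animal that was probably clearing the virus before dosing, was left out. The groups held 11 wIFN-α and 12 placebo animals at weeks -3 and 0, 9 and 12 at weeks 3 and 7, 8 and 10 at week 11, 8 and 9 at week 15, 6 and 5 at week 19 and 6 and 9 at week 23. M1006 and F1023, both given wIFN-α, died or were euthanized early and gave biopsies to the groups at weeks -3 and 0 only.

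The deposited tables held 203 sequencing runs of 164 biopsies, of which 149 were used, with 12072840 to 84805845 reads on genes per biopsy and a median of 28754894. All 12 hepatocyte markers looked for were detected, and together they took 0.0776% to 17.2% of the reads of a biopsy, with a median of 8.41%. The lowest share was that of F1018 at week -3. Albumin (ALB) alone took 0.0031% of reads in the biopsy where it was lowest, against a median of 3.89%. ENTPD5 and SMEK2 were set aside by the rule because their levels follow the index barcode of the run, with 77.5% of the ENTPD5 variance within groups lying between barcodes. For the members with a value that share was at most 8.39%. Both genes also missed the 1.5-fold minimum, with week 0 log2 ratios of 0.35 and 0.17.

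The label that the rule was written for, genes raised after the first dose, went against the data for most members. By what they are known to do, 86 of the 100 are genes of striated muscle, 4 are structural RNAs and 10 are other genes. None is among 50 type I interferon-stimulated genes listed for comparison. The highest wIFN-α value at week 0 belonged to F1023 for 73 members, to M1006 for 21 and to another animal for 6. The list is therefore called here by its leading genes, the ACTC1, MYH3 and MYBPH list.

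Skeletal muscle contracts when myosin heads of the thick filament pull on actin of the thin filament, within sarcomeres that are anchored at Z-discs. Calcium released from the sarcoplasmic reticulum binds troponin and starts the cycle, and creatine kinase, glycogen and myoglobin supply the energy. Liver parenchyma holds no striated muscle, so transcripts of sarcomere proteins are near absent from hepatocytes. In bulk tissue, fewer cells of a type and less RNA per cell cannot be told apart.

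A set of 6 muscle genes that are not members, CKM, MYH2, MYH7, MYL1, DES and TPM2, was summed to follow muscle RNA in each biopsy. At week 0 this sum had a lowest, median and highest value of 223, 350 and 25259 CPM in the wIFN-α animals and 189, 474 and 7120 CPM in the placebo animals. The highest values were 25259 CPM in F1023, 10544 CPM in M1006 and 2478 CPM in M1007 among wIFN-α animals, and 7120 CPM in F1016, 7118 CPM in F1021 and 5678 CPM in M1010 among placebo animals. The placebo animals M1009 and M1008 followed with 2013 and 1680 CPM, and all remaining animals of both groups were at 474 CPM or less. Muscle RNA was thus well above this floor in 3 of 11 wIFN-α and 5 of 12 placebo animals. The log2 ratio of the group means was 0.78, while the log2 ratio of the medians was -0.44.

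**Figure D1:**
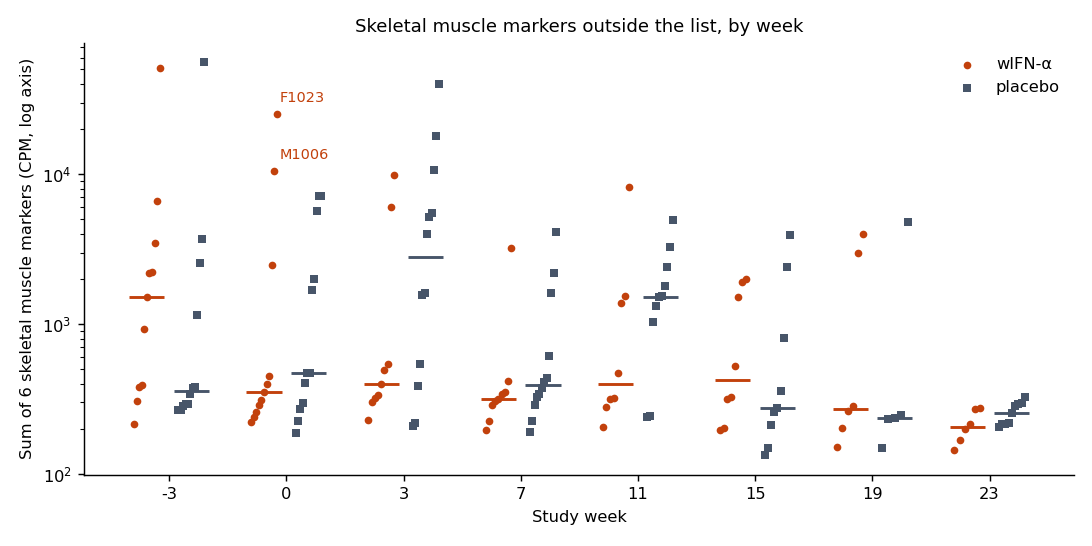
Summed CPM of 6 muscle markers that are not members (log axis) by study week, with 1 point per biopsy and wIFN-α and placebo animals side by side. Single biopsies of both groups reach above 5000 CPM at weeks -3, 0 and 3, while at week 23 every biopsy lies between 145 and 327 CPM.

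The same sum was uneven at other weeks. At week -3, before any dose, it reached 51172 CPM in the wIFN-α animal F1018 and 55739 CPM in the placebo animal F1016. Its median at that week was 1519 CPM with wIFN-α and 359 CPM with placebo, a log2 ratio of medians of 2.08. At week 3 it ran from 228 CPM through a median of 398 CPM to 9807 CPM with wIFN-α, and from 208 CPM through 2799 CPM to 39910 CPM with placebo. Over 5000 CPM were 2 wIFN-α and 3 placebo biopsies at week 0, 2 and 5 at week 3, and 1 and 0 at week 11. No biopsy passed that level at weeks 7, 15, 19 and 23. The log2 ratio of means moved from 0.78 at week 0 to -1.84 at week 3, -0.56 at week 7, -0.21 at week 11 and -0.11 at week 15.

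The 86 muscle genes of the list took 8.34% of all reads on genes in F1023 at week 0, 3.36% in M1006 and 0.632% in M1007. In placebo biopsies of that week the largest shares were 2.25% in F1021, 1.77% in F1016 and 1.29% in M1010. Across the 149 biopsies, the Pearson correlation of a member's CPM with the 6-marker sum exceeded 0.8 for 88 members and 0.9 for 78, with a median of 0.957. These biopsies share animals and sequencing lanes, so the correlations are descriptions.

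Of 12 myosin and thick filament genes, MYH3, the embryonic myosin heavy chain, led with a week 0 ratio of 2.17. Its level was 162 CPM in M1006, 27.3 CPM in F1023 and 12.9 CPM in M1007, and at most 0.25 CPM in the other 8 wIFN-α animals. The placebo animal F1016 held 27.7 CPM, so only M1006 lay above all placebo animals. MYH1, the fast IIx heavy chain, reached 18574 CPM in F1023 and 3504 CPM in M1006, against a highest placebo value of 5038 CPM in F1021. TTN, the giant titin spring, ran from 0.31 through a median of 1.93 to 5518 CPM with wIFN-α and from 0.28 through 23.2 to 1391 CPM with placebo. For both genes the typical wIFN-α animal lay under the typical placebo animal, since the wIFN-α median was 2.86 CPM for MYH1 against 70.1 CPM. MYLPF, the fast regulatory light chain, had medians of 0.75 and 11.2 CPM. MYBPH, a myosin-binding protein, had its highest value of 145 CPM in M1006, and MYLK4, a myosin light chain kinase, 61.8 CPM in the same animal.

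Among 8 actin and thin filament genes, ACTC1, the alpha-actin of heart and of developing muscle, had the largest value of the rule at 3.60. Its week 0 level was 47.9 CPM in M1006 and 1.54 CPM in F1023, and at most 0.36 CPM in the other wIFN-α animals. The highest placebo level was 1.89 CPM in M1009, and M1006 alone supplied 95.8% of the wIFN-α sum. ACTA1, the actin of adult skeletal muscle, ran from 13.4 through a median of 23.8 to 8654 CPM with wIFN-α and from 16.9 through 72.3 to 2470 CPM with placebo. The troponin genes TNNT1, TNNT3, TNNI2 and TNNC2, which carry the calcium switch, had highest wIFN-α values of 817, 2860, 1479 and 1888 CPM. Their highest placebo values were 295, 676, 328 and 520 CPM. NEB, the nebulin ruler of the thin filament, reached 2869 CPM with wIFN-α and 850 CPM with placebo. No thin filament gene had a ratio of medians above 0, the range being -3.34 to -0.31.

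The largest class was the 20 genes of the Z-disc and its scaffold. XIRP1, an actin-binding protein of the intercalated disc and of repairing muscle, was at 350 CPM in M1006 and 309 CPM in F1023, and the next wIFN-α animal, M1007, was at 17.6 CPM. The placebo animals M1010, M1009 and F1016 held 124, 52.0 and 50.6 CPM of XIRP1. ANKRD1, a stretch-responsive partner of titin, reached 162 CPM with wIFN-α and 51.7 CPM with placebo, CSRP3, the muscle LIM protein, 392 and 108 CPM, LMCD1 119 and 27.9 CPM, and MYOT, myotilin, 462 and 159 CPM. ANKRD2, another titin partner, reached 137 and 19.5 CPM. In all 20 genes the highest wIFN-α animal was F1023 or M1006, and both together held 91.2% to 97.2% of the summed wIFN-α level.

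All 11 genes of excitation and calcium handling had their highest wIFN-α value in F1023. CHRNA1, a subunit of the acetylcholine receptor at the nerve-muscle junction, was at 30.2 CPM in F1023, 4.13 CPM in M1006 and 0.53 CPM in M1007 and at 0 in the other 8 wIFN-α animals. Its highest placebo value was 2.72 CPM in F1021. ATP2A1, the calcium pump of fast fibres, reached 4322 CPM against 1187 CPM, and CASQ1, the calcium store of the reticulum, 948 against 307 CPM. The ratio of medians of the class was -2.70 to -0.06.

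Muscle energy metabolism supplied 11 members. MB, myoglobin, reached 3213 CPM with wIFN-α and 777 CPM with placebo, PYGM, muscle glycogen phosphorylase, 2956 and 657 CPM, and FBP2, the muscle form of fructose bisphosphatase, 118 and 40.9 CPM. UCP3, a mitochondrial carrier of muscle, was at 102 CPM in F1023, 25.6 CPM in M1006 and 7.46 CPM in M1007, and at no more than 0.03 CPM in the other wIFN-α animals. PDK4, which shuts pyruvate dehydrogenase in fasting and is also made in liver, was an exception to the near-floor levels, with 46.5, 99.0 and 820 CPM as lowest, median and highest value with wIFN-α and 15.9, 76.6 and 448 CPM with placebo. F1023 and M1006, at 820 and 740 CPM, again stood apart, and the next wIFN-α animal was at 150 CPM. PFKFB3, which makes the activator of glycolysis fructose 2,6-bisphosphate, was at 130 CPM in F1023 and 44.7 CPM in M1006, against 23.4 CPM in the highest placebo animal, F1021.

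**Figure D2:**
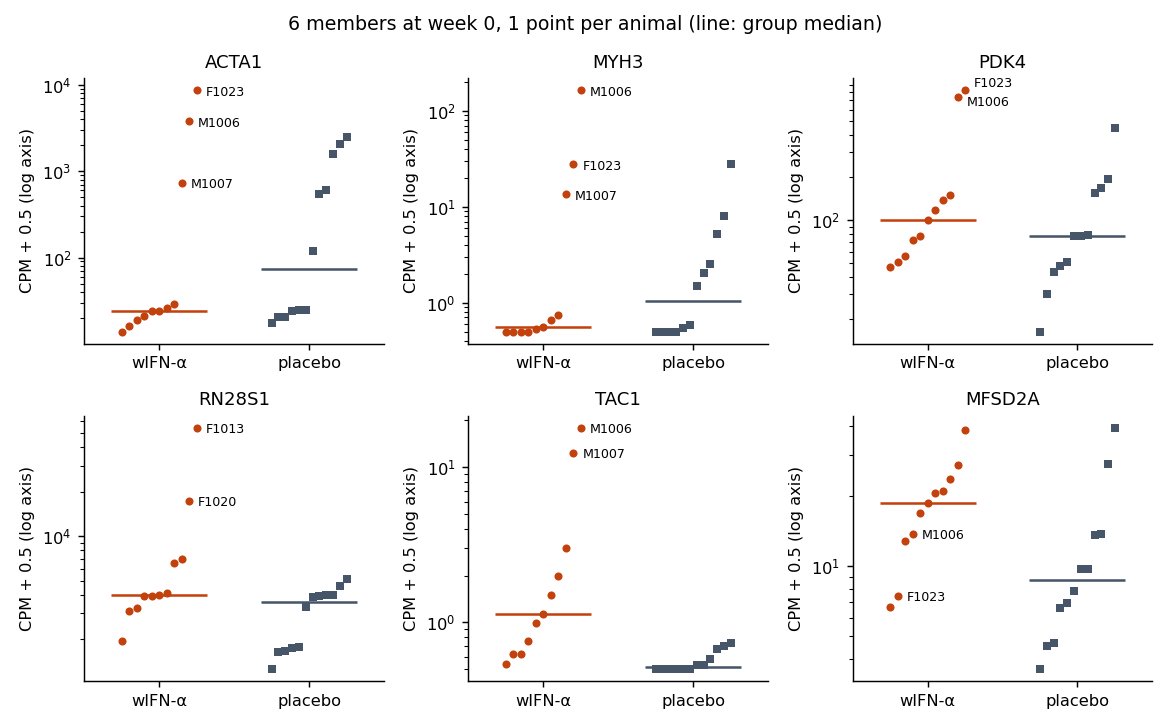
CPM plus 0.5 (log axis) of 6 members at week 0, with 1 point per animal, wIFN-α left and placebo right, and a line at the group median. M1006 and F1023 are the highest wIFN-α animals for ACTA1, MYH3 and PDK4, with M1007 next for ACTA1 and MYH3, and so are F1013 and F1020 for RN28S1, and M1006 and M1007 for TAC1, while MFSD2A overlaps between groups.

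Protein turnover and chaperones made up 11 members. TRIM63, the ubiquitin ligase MuRF1 that tags sarcomere proteins in wasting muscle, was at 162 CPM in M1006 and 139 CPM in F1023, followed by 9.98 CPM in M1007. Placebo values of TRIM63 reached 68.6 CPM in F1021. HSPB1, a small heat shock protein made in many cells, ran from 0.68 through 5.26 to 160 CPM with wIFN-α and from 0.54 through 2.77 to 64.8 CPM with placebo. It was the only muscle gene of the list whose log2 ratio of medians, 0.81, also passed 1.5-fold. The remaining 13 genes known from muscle, among them RRAD, SPEG and NCAM1, had ratios of medians of -1.58 to -0.22.

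Levels were next set against the 6-marker sum within the 51 biopsies in which that sum was over 1000 CPM. Per 1000 CPM of markers, ACTA1 lay between 192 and 416 CPM in all 51, at 361 in M1006 and 343 in F1023 at week 0 and at 276 to 347 in the other 6 such biopsies of that week. M1006 differed from those for several genes chosen here after their values were seen. MYH3 was at 15.4 CPM per 1000 in M1006 and 1.08 in F1023, against 0.83 to 5.21 in the other week 0 biopsies. MYBPH was at 13.7 against 0.68 to 3.47, CSRP3 at 37.2 against 6.21 to 15.5, ACTC1 at 4.55 against 0.15 to 0.94 and TRIM63 at 15.4 against 2.18 to 9.63. M1006 ranked first of 51 for TRIM63. For MYH3, MYBPH and ACTC1 the placebo animal M1005 at week 3 ranked first, with 39.2 CPM per 1000 for MYH3 and 30.6 for ACTC1.

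The 4 structural RNAs behaved otherwise. RN28S1, RN18S1 and RN5-8S1 are ribosomal RNAs and RN7SL1 is the RNA of the signal recognition particle. All are made in every cell. The paper purified RNA on oligo(dT) beads, which bind poly(A) tails, before making libraries. The counts of these 4 therefore cannot be read as their levels in the liver. Differences in that step between biopsies were not tested. At week 0 RN28S1 was at 54120 CPM in F1013 and 17355 CPM in F1020, against 1957 to 6988 CPM in the remaining 9 wIFN-α animals and 1259 to 5129 CPM in the placebo animals. F1013 and F1020 were also the highest for RN18S1 at 34188 and 10682 CPM, for RN5-8S1 at 597 and 237 CPM and for RN7SL1 at 266 and 60.0 CPM. Correlation of these 4 with the muscle markers, on the log2 scale used above, was -0.17 to -0.11 over 149 biopsies. Within animals, RN28S1 was higher at week 0 than at week -3 in 11 of 11 wIFN-α animals, with a median log2 change of 0.65, and in 3 of 12 placebo animals, with a median of -0.65. RN18S1 was higher in 11, RN5-8S1 in 8 and RN7SL1 in 7 of 11 wIFN-α animals, and each of these in 4 of 12 placebo animals. At week -3 the wIFN-α animals held 1908 to 5198 CPM of RN28S1 and the placebo animals 2299 to 17163 CPM, so its highest values before dosing were those of placebo animals. M1006 and F1023 supplied 4.05% to 7.79% of the wIFN-α sum of these RNAs.

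Of the 10 other genes, TAC1 had the largest week 0 ratio of the list, 2.75. TAC1 encodes the precursor of substance P and neurokinin A, peptides of sensory nerves. Its week 0 level was 17.4 CPM in M1006, 11.9 CPM in M1007 and 2.52 CPM in F1022, with a wIFN-α median of 0.63 CPM and a lowest value of 0.03 CPM. Placebo animals held 0 to 0.23 CPM, and 8 of 11 wIFN-α animals lay above all of them. The rule chose TAC1 by these week 0 values, so this count and the change from week -3 are descriptions with no test. TAC1 was higher at week 0 than at week -3 in 11 of 11 wIFN-α animals, with a median change of 1.05 on the log2 scale of CPM plus 0.5, and in 6 of 12 placebo animals, with a median of 0.04. At week 3 levels ran from 0 to 1.503 CPM with wIFN-α and from 0 to 0.43 CPM with placebo, and at weeks 19 and 23 TAC1 had no read in any biopsy of the groups. Most of these levels correspond to few reads, so TAC1 did not pass the filter for the test at week 3.

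MFSD2A, a transporter of lysophosphatidylcholine that is made in liver in fasting, ran from 6.20 through 18.3 to 38.0 CPM with wIFN-α at week 0 and from 3.13 through 8.28 to 38.9 CPM with placebo. The groups overlapped over nearly the whole range. Its place in the list came as much from the placebo animals, whose median MFSD2A level was 55.1 CPM at week 7, 61.5 CPM at week 11 and 78.8 CPM at week 15, against 33.3, 37.7 and 36.2 CPM with wIFN-α. MT1IP, a gene of the metallothionein family, had medians of 1.92 and 0.57 CPM at week 0, and the highest value of all, 10.9 CPM, was that of the placebo animal M1010.

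Over the whole list the week 0 ratio of means was 0.59 to 2.75 with a median of 1.07. The ratio of medians of the same values was -4.39 to 1.18 with a median of -0.92, and it reached 1.5-fold for 6 of the 100 genes. Without M1006 and F1023 the ratio of means was -3.80 to 2.77 with a median of -2.12, below 0 for 93 genes and at 1.5-fold or more for 7, which were the 4 structural RNAs, TAC1, MT1IP and MFSD2A. These animals together supplied a median of 93.3% of the summed wIFN-α level of a member at week 0. Neither animal contributed to the later weeks that the rule subtracts.

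**Figure D3:**
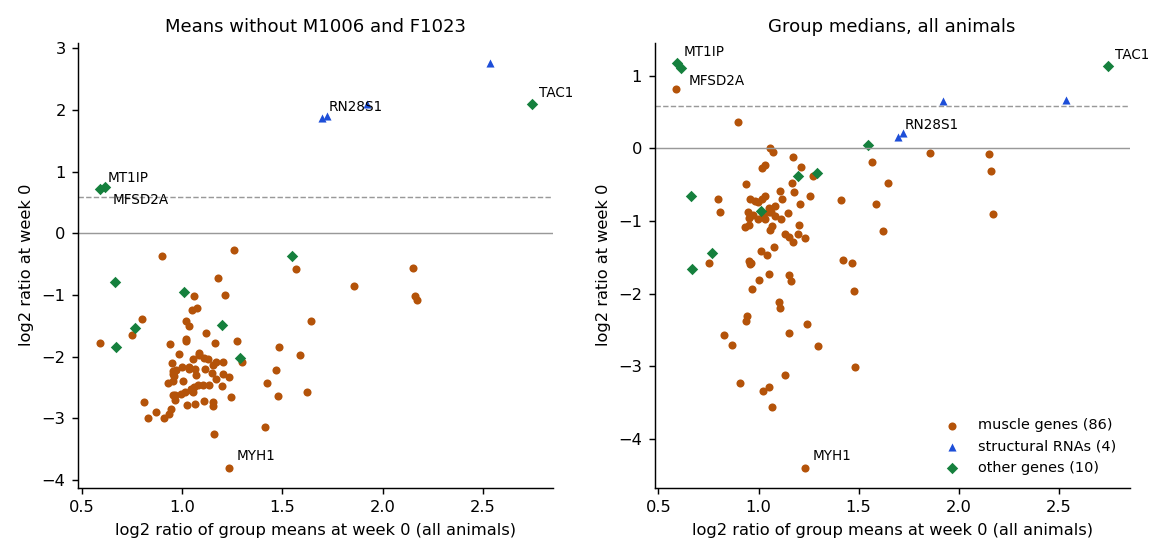
Week 0 log2 ratio of means of each member (horizontal axis) against its ratio of means without M1006 and F1023 (left) and its ratio of medians (right), coloured by class, with a solid line at 0 and a dashed line at 1.5-fold. Muscle genes fall below 0 on the vertical axes in nearly all cases, while the 4 structural RNAs, TAC1, MT1IP and MFSD2A stay above the dashed line in the left panel.

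Applied to medians over animals in place of means, the rule gave a list that shared 3 genes with this one, HSPB1, MFSD2A and RN7SL1. With only the 8 wIFN-α and 9 placebo animals that had biopsies at weeks 0, 7, 11 and 15, it shared 6, which were MFSD2A, MT1IP and the structural RNAs. The same 6 were shared when M1006 and F1023 alone were left out. Without F1023 alone 20 genes were shared and without M1006 alone 58. At the lower end of the list, CAND2, COX6A2 and ACTN3 were just inside with values of 1.39, 1.39 and 1.38, and JPH2, TNNI3 and POPDC2, which are also muscle genes, were just outside with 1.38, 1.37 and 1.37.

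At later weeks the members' ratios of means lay mostly below 0. Over the 100 members it had a median of -0.83 in week 7, -0.31 in week 11 and -0.33 in week 15. In week 3, which the rule did not use, the median was -1.68, with 90 members below 0. This order, lowest at week 3 and nearer 0 at weeks 11 and 15, was also that of the 6-marker sum given above.

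**Figure D4:**
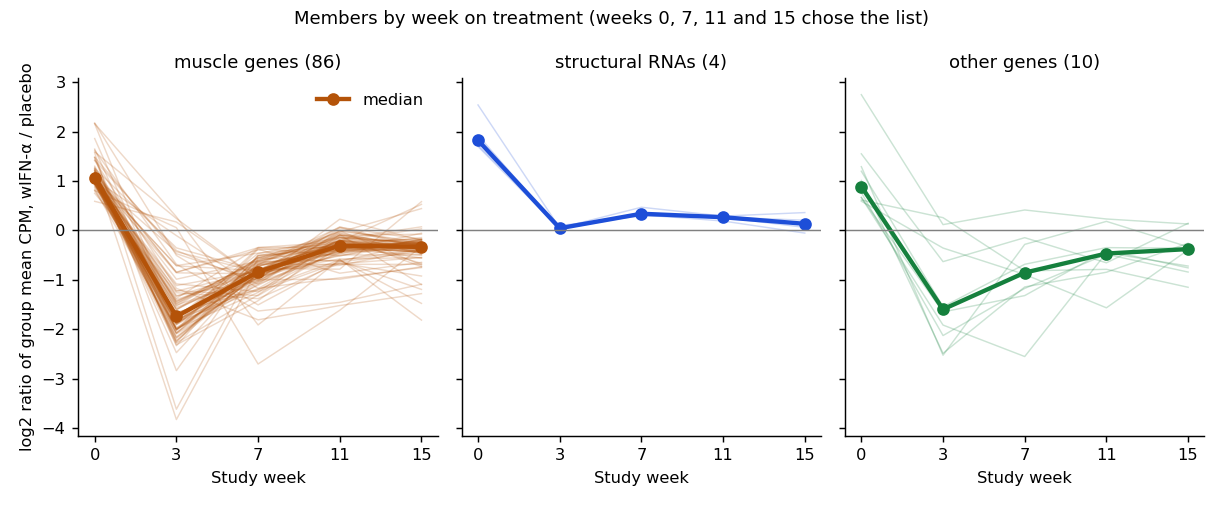
Log2 ratio of mean wIFN-α CPM to mean placebo CPM, each plus 0.5, by study week, for the 86 muscle genes, 4 structural RNAs and 10 other genes, with a thin line per member and a thick line at the median. The muscle genes stand above 0 at week 0, where the rule chose them, and have their lowest median at week 3, while the structural RNAs return to near 0 at week 3.

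In the test at week 3, on 9 wIFN-α and 12 placebo animals, 99 members could be tested. By the edgeR quasi-likelihood test, with fold changes over 1.5 and Benjamini-Hochberg adjusted p-values under 0.05, 0 were higher with wIFN-α and 2 were lower, where 7.24% of all 15006 genes tested were higher and 3.54% lower. At an unadjusted p under 0.05 there were 0 higher and 6 lower of the 99, where 2558 of the 15006 genes were higher and 2461 lower. DESeq2 called 0 higher and 10 lower where it called 5.06% of all genes lower, and limma-voom called 0 in either direction where it called 10.2% of all genes. The median log2 fold change of the members was -1.76, with 91 of 99 below 0, against -0.04 over all genes. The counts lean on single biopsies, since 19 of 99 members were lower without F1018, where 766 of 15036 genes were. The count was 0 without any 1 of M1002, M1003, M1007, F1013, F1020, F1021 and F1022. It was 1 without M1001, M1009, M1011 or F1014 and 4 without M1010, F1015, F1019 or F1024. Over all genes, 377 to 766 were lower in these fits.

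PFKFB3 was lower with wIFN-α than with placebo at week 3, by 3.80 on the log2 scale (SE 1.25, edgeR adjusted p = 0.0358). Its wIFN-α levels were 1.38 to 27.8 CPM with a median of 4.03 CPM, and its placebo levels 1.47 to 32.3 CPM in 11 animals and 1017 CPM in F1021. Without F1021 the log2 fold change was -0.61 and the call was lost, as it also was without any 1 of M1002, M1003, M1007, F1013, F1018, F1020 and F1022, at -3.78 to -3.66. With the 6 muscle markers as a covariate its log2 fold change was 0.68, and without the biopsies over 5000 CPM on these markers 0.19, and it was not called in either of these settings, which were chosen after seeing the data. With sequencing lane as a covariate, also chosen then, 0 members were called, PDE7B included. PDE7B, a cyclic AMP phosphodiesterase, was lower with wIFN-α than with placebo by 2.19 (SE 0.74, edgeR adjusted p = 0.0422). Its levels were 0.83 to 5.43 CPM in 8 wIFN-α animals and 24.1 CPM in F1018, and 2.39 to 105 CPM with placebo, so that the groups overlapped. Without F1021 the PDE7B log2 fold change was -1.61 and it was no longer called, nor was it without M1001, M1009, M1011 or any 1 of the wIFN-α animals other than F1018.

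UCP3 had the lowest log2 fold change of the list at week 3, -4.33 (SE 1.56, edgeR adjusted p = 0.0540), followed after PFKFB3 by TRIM63 at -2.998, CHRNA1 at -2.81 and LOC100506114 at -2.72. None of these 4 passed the threshold. At the other end stood MFSD2A at 0.31 (SE 0.37, edgeR adjusted p = 0.586), ACTC1 and RN18S1 at 0.12, ANKRD2 at 0.10 and RN5-8S1 at 0.07, each smaller than its standard error. PDK4 had a value of -1.49 and HSPB1 of 0.00. The values of ACTC1, ANKRD2 and HSPB1 took the other sign under several other settings. RN28S1 was at 1492 to 7180 CPM with wIFN-α and 1097 to 5293 CPM with placebo at week 3, and its difference, 0.05, was within its standard error of 0.28.

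With the log2 level of the 6 muscle markers as a covariate, a setting chosen after seeing the data, the median log2 fold change of the members at week 3 moved to -0.46, and 3 were lower, KLHL31, PDE7B and SEMA6C, against 3.31% of all genes. Without the biopsies over 5000 CPM on these markers, which left 7 animals per group, 31 of 54 members that passed the filter were lower, against 3.43% of all genes, and the median was -2.58. The marker sum of the animals left was still uneven, at 228 to 544 CPM with wIFN-α and 208 to 3984 CPM with placebo. Between week -3 and week 3 the difference of wIFN-α from placebo fell in 17 of 100 members and rose in 0 by an interaction term in limma-voom with the animal as block. It fell in 2.9% of all genes and rose in 1051 of 16232. The median marker sums with wIFN-α and placebo were 1519 and 359 CPM at week -3 and 398 and 2799 CPM at week 3. Their part in the interaction was not tested.

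Of the muscle list for comparison, 14 of 20 genes are members, and 0 of the 20 were called at week 3, with a median log2 fold change of -1.90. In the same fit 47 of 48 type I interferon-stimulated genes tested were higher, with a median of 3.22. Hepatocyte markers had 0 of 12 called with a median of 0.00. Markers of stellate cells and fibroblasts were lower with wIFN-α for 4 of 10, the collagens COL1A1, COL1A2 and COL3A1 and the matrix protein LUM, with 0 higher and a median of -1.03, and their part in the members' values was not tested. Of the other lists that hold a member, heat shock proteins had 1 of 17 higher and targets of glucocorticoid and fasting 1 higher and 1 lower of 19. Neither HSPB1 nor PDK4, their members in the list, was among these.

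Before dosing, at week -3, 96 members were tested and 0 were called, where 0% of 14963 genes were called in either direction. By edgeR 2 members were higher and 4 lower at an unadjusted p under 0.05, where 55 of the 14963 genes were higher and 75 lower. DESeq2, limma-voom and the fit with the animal as block called 0. The members' median log2 fold change was 0.29, and it was 1.29 over the 89 tested without F1018 and F1016, again with 0 called. The 4 lower were the structural RNAs, with log2 fold changes of -1.02 for RN28S1, -1.19 for RN18S1, -1.16 for RN5-8S1 and -0.97 for RN7SL1. LOC100506114, at 3.63, was among the 2 higher. The largest muscle values of the series belong to this week, when the muscle members took 16.6% of reads in F1018 and 15.8% in F1016. The biopsy of F1018 at that week also had the lowest share of hepatocyte markers.

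After treatment the 6 muscle markers were at 4014 CPM in F1013 and 3002 CPM in F1022 with wIFN-α and at 4794 CPM in the placebo animal M1005 at week 19, and at no more than 282 CPM in the other 8 biopsies. At week 19, 54 members passed the filter and 0 were called by edgeR, against 0% of 14715 genes. At an unadjusted p under 0.05 there were 4 lower of the 54, where 988 of the 14715 genes were. They were again the structural RNAs, with RN5-8S1 at -1.75 (edgeR adjusted p = 0.297) and RN28S1 at -0.70. DESeq2 called 1, against 0.605% of all genes, and limma-voom 0. The members' median log2 fold change was 0.27 at that week. Without M1005 it was 2.95, with 33 of 54 members higher at an unadjusted p under 0.05, where 715 of 14848 genes were, and 0 called. Without F1013 or F1022 the members' median turned to -0.40 or -0.30. At week 23, when every biopsy was at 327 CPM or less on the markers, 52 members passed and 0 were called by edgeR, against 0% of 14956 genes. Limma-voom and DESeq2 also called 0 members, and DESeq2 gave no adjusted p for 23 of them. At an unadjusted p under 0.05 by edgeR, 1 of the 52 was higher and 5 were lower. Of the 14956 genes 1146 were higher and 1270 lower, so the share of lower members was near that of all genes. At that week ACTA1 lay between 9.64 and 20.2 CPM in every animal, and MYH1, TNNI2, KBTBD10, TCAP and CRYAB were the 5 lower genes, with log2 fold changes of -1.79, -1.09, -0.95, -1.03 and -0.56.

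The list that the same rule gave on medians over animals holds other genes. Their correlation with the muscle markers, on the log2 scale used above, passed 0.8 for 2 of 100, with a median of -0.05. IL1RN, the secreted antagonist of the interleukin-1 receptor, was first. It ran from 20.6 through 76.9 to 283 CPM with wIFN-α at week 0 and from 4.01 through 16.3 to 60.1 CPM with placebo, with 6 of 11 wIFN-α animals above all placebo animals. Its medians were 22.2 and 10.6 CPM at week 3 and 14.3 and 13.5 CPM at week 7. The test of IL1RN at week 3 gave a log2 fold change of 0.15 (SE 0.45, edgeR adjusted p = 0.851). CEBPD, a transcription factor of the acute phase, ran from 46.8 through 116 to 251 CPM with wIFN-α and from 18.3 through 34.6 to 51.9 CPM with placebo, with 10 of 11 above all placebo animals. At week 3 CEBPD had a log2 fold change of 0.66 (SE 0.25, edgeR adjusted p = 0.0624).

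**Figure D5:**
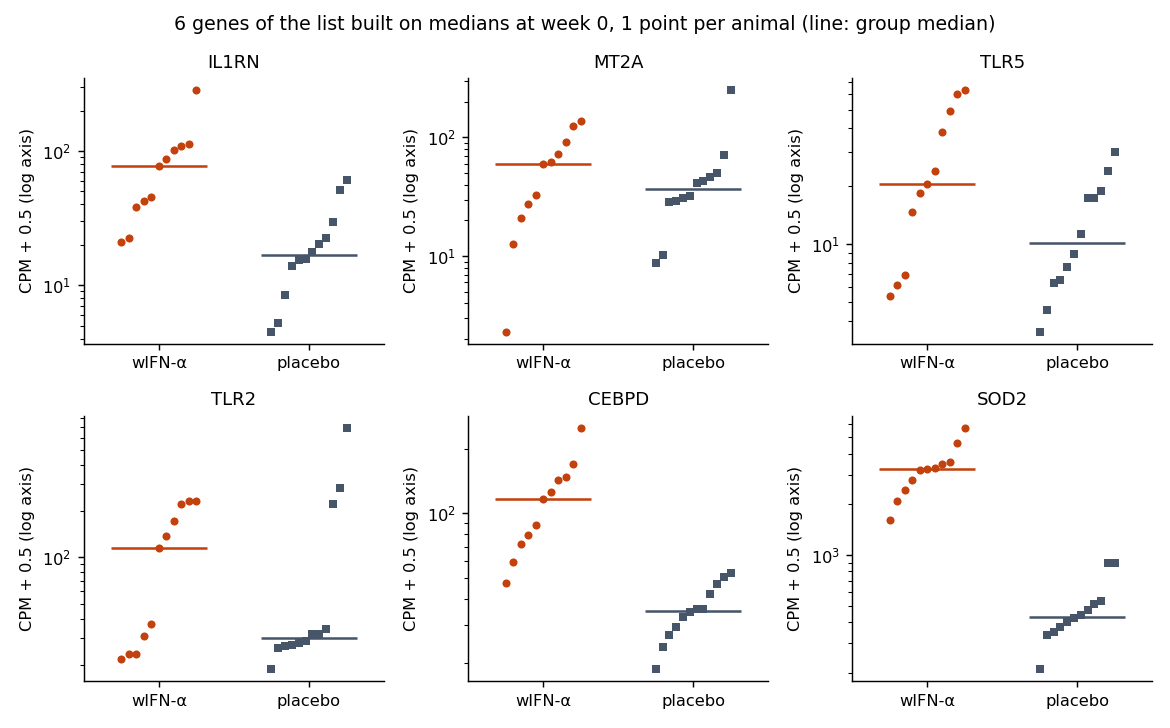
CPM plus 0.5 (log axis) of 6 genes of the list built on medians at week 0, with 1 point per animal, wIFN-α left and placebo right, and a line at the group median. All wIFN-α animals lie above all placebo animals for SOD2, 10 of 11 do so for CEBPD and 6 of 11 for IL1RN, while MT2A, TLR5 and TLR2 overlap.

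SOD2, the mitochondrial superoxide dismutase, ran from 1615 through 3224 to 5695 CPM with wIFN-α and from 210 through 431 to 898 CPM with placebo at week 0. All 11 wIFN-α animals lay above all placebo animals, and SOD2 was still higher at week 3, by 2.34 on the log2 scale (SE 0.26, edgeR adjusted p = 7.2e-07). The log2 ratio of its medians was 2.90 at week 0 and 2.56, 2.15 and 2.15 at weeks 7, 11 and 15, so SOD2 stayed high on treatment. TNFAIP3, a brake on NF-kB signalling, was higher at week 3 by 0.71 (SE 0.22, edgeR adjusted p = 0.0270). Its log2 ratio of medians was 1.63 at week 0 and 0.80, 1.175 and 1.42 at weeks 7, 11 and 15. TLR5, the flagellin receptor, had week 0 medians of 19.9 and 9.58 CPM, TLR2, the lipopeptide receptor, of 114 and 29.5 CPM, and the metallothionein MT2A of 59.8 and 36.1 CPM, each with overlapping groups. At week 3, 22 of the 99 genes of this list that were tested were higher and 0 lower by edgeR, where 7.24% of all genes were higher. The list was chosen for higher wIFN-α medians at week 0, at the same 20 μg dose and mostly in the same animals. All genes are therefore not a matched reference for it, and no conclusion is drawn from that excess.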

How the data were processed

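The authors deposited, for each sequencing run, a table with expected counts per gene, which need not be whole, and RPKM values. Per the labels, Bowtie2, SAMtools, CASAVA, FastQC and DESeq were among the tools used, and the transcript models carry symbols of human genes. Counts of the runs of a biopsy were summed, rounded to whole numbers and, with the virus entry kept out, scaled to CPM. The deposited RPKM values served only to check the unit. Members and gene lists were chosen with earlier results of these data known, and roles were given to members from general knowledge after the list was seen. Members named are the 12 with the largest value of the rule, those in a fixed gene list, the 5 highest and 5 lowest at week 3, those called at week -3, 19 or 23 and the 3 on each side of the list's end. Others were chosen after their values were seen. The values of 1 member are not reported here.

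Groups were compared with edgeR 4.0.16 (TMM, filterByExpr, quasi-likelihood test, R 4.3.3) at weeks -3, 3, 19 and 23, with Benjamini-Hochberg adjustment over all genes tested. Alternatives used DESeq2 1.42.0 and limma 3.58.1 (voom). Animals repeat across weeks, not across groups, and the correlation within an animal in a fit of all 8 weeks was 0.21. P-values measure the spread between animals. Scripts were tested on simulated data. Of 100 member symbols 83 matched RefSeq, and no coordinates or sequences are given. Counting error alone is small at these depths except for genes near 0 CPM.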

Additional observations from a re-analysis of the deposited data

Results flagged for a closer look

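Among 110 group values of the muscle markers and named genes, 14 had 1 animal far from the rest of its group by Dixon's ratio, a rule by which chance picks about 1 in 20 groups. Groups of 11 or 12 animals were not screened in this way. These were both groups at weeks -3 and 0 and the placebo groups at weeks 3 and 7. F1013 (wIFN-α, week 7) was at 3222 CPM on the 6 muscle markers against 420.5 CPM in the next animal, with 1124 CPM of ACTA1, 17.2 CPM of MYH3 and 7.99 CPM of PDE7B. M1005 (placebo, week 19) was at 4794 CPM on the markers against 247.3 CPM, with 1103 CPM of ACTA1 and 48.1 CPM of MYH3. TAC1 was high in M1012 at week 3 with 1.503 CPM and at week 11 with 0.497 CPM, and in F1014 at week 15 with 0.463 CPM. IL1RN was low in M1012 at week 11 with 3.07 CPM, where the next lowest wIFN-α animal was at 11.8 CPM, and high in F1020 at week 15 with 259 CPM. MT2A was low in the placebo animal M1001 at week 11 with 10.7 CPM and high in M1011 at week 15 with 172 CPM.

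Biopsies outside the groups also held values above all placebo biopsies they were set against. For M1004 these were the placebo biopsies of the same week. For biopsies with no study week they were the placebo biopsies of the groups at all weeks. M1004, left out of the groups, was at 7477 CPM on the muscle markers at week 11, where the highest placebo animal was at 4940 CPM, and at 0.464 CPM of TAC1 against 0.112 CPM. The same biopsy held 2389 CPM of ACTA1, 9.53 CPM of PFKFB3 and 19.9 CPM of PDE7B, each above the highest placebo animal, and M1004 at week 3 held 93.7 CPM of MFSD2A against 47.7 CPM. M1006 had 0.838 CPM of TAC1 in its biopsy labelled week 3, above the 0.425 CPM of the highest placebo animal, and F1023 had 25770 CPM of RN28S1 in the biopsy taken at death, above 17160 CPM. Of the genes of the list built on medians, IL1RN was at 1650 CPM in F1023 and 558.6 CPM in F1020, both sampled at death, where no placebo biopsy passed 60.9 CPM, and MT2A was at 329 CPM in F1023, above 248 CPM. The paper names severe pneumonia as a likely reason for the death of F1023, and its part in these values was not tested. The difference between wIFN-α and placebo changed from week -3 to week 3 in 17 of 100 members, all downward, by the interaction term, where it fell in 2.9% of all genes.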

How the results depend on the processing

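The list kept 79 to 98 of its 100 genes under another pseudocount, TMM scaling, M1004 included, the deepest run only or week 3 added, 3 with medians over animals, and 20 to 98 leaving out 1 animal at a time. Chosen after seeing the data were 3 alternatives that each kept 6, namely animals with all 4 weeks, no M1006 or F1023, and no biopsies over 5000 CPM on muscle markers. The 2 members called at week 3 became 10 with DESeq2, 0 with limma-voom, 4 with M1004 included, 0 with sequencing lane as a covariate (added), 31 of 54 tested without the biopsies over 5000 CPM (added), 5 in 1 fit of all 8 weeks and 1 with the animal as a replicate block, with 0 to 19 leaving out 1 animal. All were lower. Genes called lower in the main fit were 531 of 15006. In the other settings, in the same order, they were 760 of 15006, 479 of 15006, 653 of 14947, 284 of 15006, 505 of 14718, 738 of 16232 and 608 of 16232. Leaving out 1 animal, they were 377 to 766. The members' median log2 fold change stayed below 0 in all settings run, at -3.03 to -1.01 leaving out 1 animal. At week 19 DESeq2 called 1 member, and 0 were called leaving out 1 animal. Of the list on medians, 11 genes in place of 22 passed with a fold change over 2, and 18 to 25 leaving out 1 animal. The replicate block changed no call of the 100 members at weeks -3, 19 and 23. At week 23 the replicate block called 2 genes of the list on medians and, of all 16232 genes, 177 higher and 74 lower, where edgeR without it called 0 genes.

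Signs at week 3 turned as follows, and the cause was not tested. HSPB1 was at -2.24 (DESeq2), -0.99 (limma-voom), -0.027 (RLE), -0.0054 (deepest run), -0.0100 (1 fit of 8 weeks), -0.15 (M1004 included), -0.39 (sex), -0.43 (lane), -1.89 (no biopsies over 5000 CPM) and -0.85 (replicate block). ACTC1 was at -2.19, -1.97, -0.029, -0.37, -0.65, -0.86 and -1.87 with DESeq2, limma-voom, M1004, sex, lane, muscle covariate and replicate block. ANKRD2 was at -2.38, -3.68, -0.048, -0.33, -1.18 and -3.32 with the same settings except the covariate. RN5-8S1 was at -0.11, -0.0036 and -0.19 with limma-voom, lane and replicate block. With the muscle covariate PFKFB3 was at 0.68, TRIM63 at 0.090, PDK4 at 0.022 and RN28S1 at -0.0039, PFKFB3 at 0.19 without biopsies over 5000 CPM, and MYH3 at 0.027 with lane.

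Leaving out 1 animal at a time, log2 fold changes ran from -3.05 to -1.06 for ACTA1, -3.08 to 0.97 for ACTC1, -2.38 to 0.87 for ANKRD2, -3.84 to -2.63 for CHRNA1, -2.30 to 0.74 for HSPB1, -4.03 to -1.46 for LOC100506114, 0.06 to 0.44 for MFSD2A, -2.26 to -0.05 for MYH3, -3.20 to -1.61 for PDE7B, -1.87 to -0.29 for PDK4, -4.34 to -0.61 for PFKFB3, -0.13 to 0.19 for RN18S1, -0.20 to 0.16 for RN28S1, -0.50 to 0.23 for RN5-8S1, -3.85 to -1.27 for TRIM63 and -7.36 to -2.67 for UCP3.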

Other observations

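Some biopsies belong to no group. F1023 and M1006, which carried most of the week 0 level of the muscle genes, each gave 1 further biopsy of this kind. In F1023, sampled at death, the 6 muscle markers summed to 230 CPM and in M1006, in the biopsy labelled week 3, to 424 CPM, against 25259 and 10544 CPM in their week 0 biopsies. ACTA1 was at 26.5 CPM in that biopsy of M1006 and MYH3 at 0. M1007, sampled at death, had 310 CPM of the markers.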
